A study of Mus musculus with 12 samples.

Results

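The complement and coagulation genes of mouse liver were described here by the m6A peaks on their transcripts. A peak was taken when its row in the authors' deposited table carried a gene name and the KEGG number of the pathway complement and coagulation cascades. This gave 93 peaks in 50 genes, out of 17503 peaks with a gene name in 10277 genes and 17692 rows in all. The genes were sorted by role into clotting factors (13 genes with a listed peak), anticoagulants and coagulation receptors (4), fibrinolysis genes (4), complement factors (12), complement regulators and receptors (10) and serpins (6). Itgb2l, an integrin subunit-like gene, belonged to none of these.

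Complement and coagulation are cascades of plasma proteases in which each enzyme is made as an inactive precursor and is cut by the one before it. Hepatocytes make most of these proteins and secrete them into the blood, while endothelial cells and macrophages supply some receptors, cofactors and components. Serpins are inhibitors that trap a protease in a covalent complex, and several of them restrain clotting, fibrinolysis and complement. N6-methyladenosine (m6A) is an internal mark of mRNA that is written cotranscriptionally by a complex whose catalytic subunit is METTL3, and it is densest around stop codons, in 3′ UTRs and in long internal exons. Reader proteins that bind it change the stability and translation of the transcript.

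The study compared livers of Mettl3-deficient mice with livers of wild-type mice, both C57BL/6, by m6A RNA immunoprecipitation and sequencing. Its 12 libraries form 4 groups of 3 replicates: Mettl3-deficient immunoprecipitated RNA, wild-type immunoprecipitated RNA, Mettl3-deficient input mRNA and wild-type input mRNA. Neither the allele, any Cre driver, the age within the postnatal period nor the sex is given in the sources used here, so the cells that lack METTL3 are not known from them. The file holds 1 comparison between the genotypes and no value per library, so depth and the spread between mice are unknown for every value below. All fold changes and false discovery rates (FDR) of single peaks are the authors', and called peaks are those with a deposited FDR of at most 0.05. The numerator of the fold change is not stated. Because METTL3 writes the mark, negative changes probably mean less m6A enrichment in Mettl3-deficient than in wild-type liver, and this reading rests on the design alone. Of 8 hepatocyte markers, 6 had a listed peak, as had 6 of 8 endothelial and 4 of 8 macrophage markers. In whole liver, fewer cells of a type and less RNA per cell cannot be told apart.

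Most peaks of these genes were called, and positive changes outnumbered negative ones. Of the 93 peaks, 81 (87.1%) were called, against 76.2% of all listed peaks with a gene name. They divided into 28 negative and 53 positive peaks, where negative called peaks made up 40.6% and positive called peaks 35.6% of all listed peaks. The negative share of called peaks was therefore 34.6% (95% Wilson interval 25.1 to 45.4, for counting error over peaks only) in complement and coagulation genes and 53.3% (52.4 to 54.1) over the whole table. The median called change was 0.54 on the log2 scale in these genes and -0.52 over the whole table. Over all listed peaks, called or not, the medians were closer and both positive, at 0.56 and 0.34. Split by sign, the medians were -0.96 and 0.71 in these genes and -1.34 and 0.73 over the whole table. Changes of at least 1 in size were seen in 13 negative and 9 positive called peaks, so 59.1% (38.7 to 76.7) of these were negative, against 78.8% (77.8 to 79.8) of the called changes of that size over the whole table. Every called peak of the set also had an FDR of 0.01 or below.

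By gene, 43 of the 50 (86%) had a called leading peak, against 81.1% of all listed genes. The leading peak of a gene is the one with the smallest FDR, and among tied peaks the one with the larger change in size. It was negative and called in 16 genes and positive and called in 27, while 47.6% of all listed genes were negative and called and 33.6% positive and called. Called peaks were all positive in 24 genes, all negative in 8 and of both signs in 11. Genes of both signs made up 25.6% of the genes with a called peak here and 15.3% over the whole table. With peaks on the own gene alone, as set out below, they were 6 of 40 (15%) here and 13.5% over the whole table. The 7 genes with no called peak were Bdkrb2, Cd59b, C5ar1, Cd55, Plat, Plaur and F13a1, among them several cell-surface receptors and inhibitors.

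**Figure D1:**
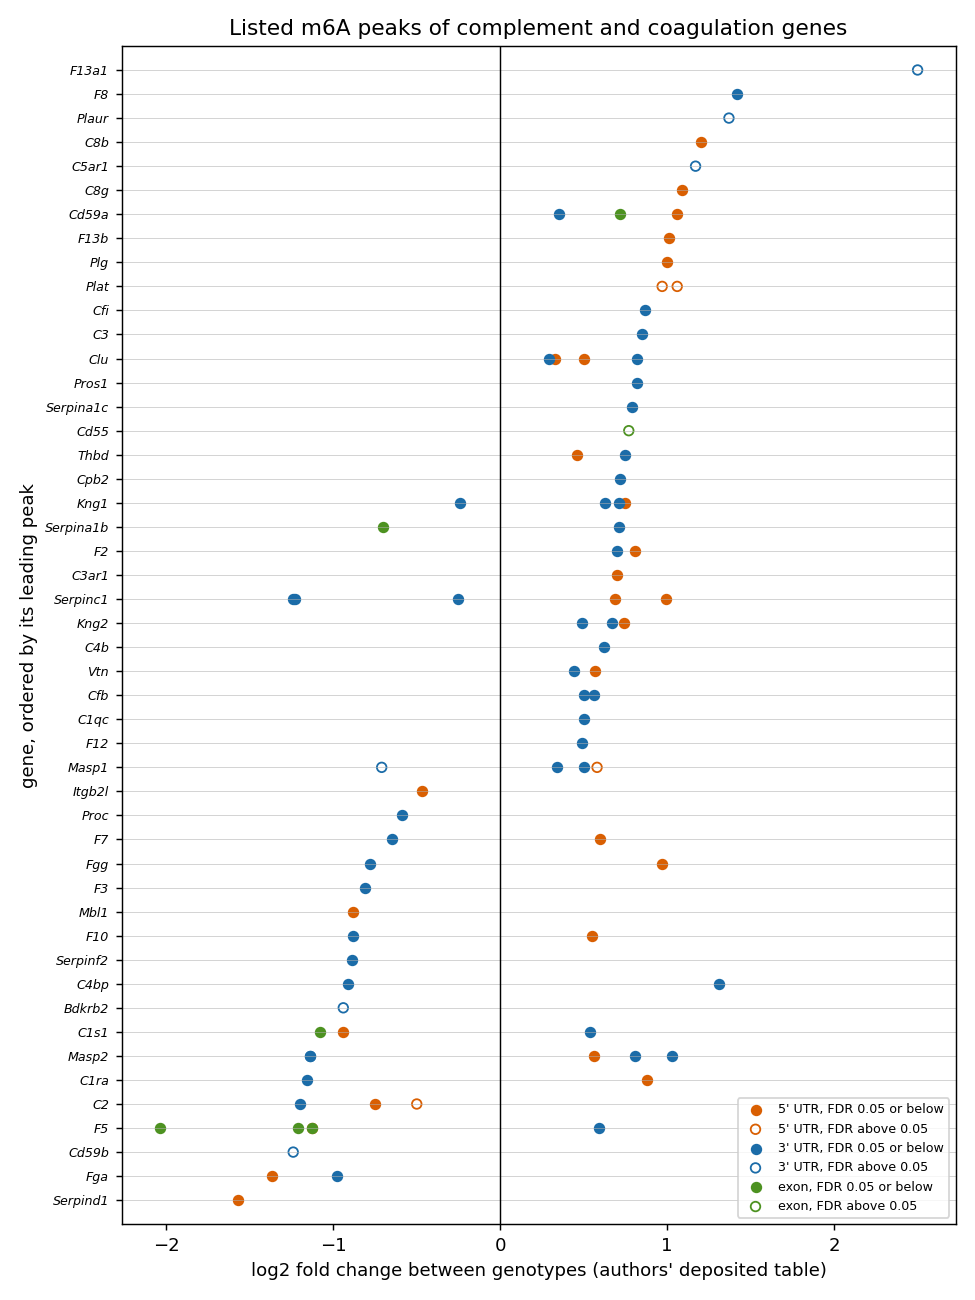
Log2 fold change between the genotypes (x axis, authors' deposited table) of 89 listed peaks, with 1 line for each of 48 of the 50 genes, ordered by its leading peak. Filled points are called peaks and open points are not called. Of the called points, 50 lie to the right of 0 and 28 to the left, and the lowest is an exon peak of F5 at -2.04.

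Not every peak lies on the gene it is annotated to. All 50 symbols matched RefSeq on assembly GRCm38.p6, which has the coordinates of mm10. Of the 93 peaks, 85 overlapped the span of their gene. Of the 8 others, 3 peaks annotated to the 3′ UTR of Serpinc1 lie past its end and overlap the RefSeq span of the zinc finger gene Zbtb37, and 2 annotated to the 5′ UTR of C2 overlap Zbtb12. The pair of C2 stood at -0.75 and, not called, at -0.50 in the authors' deposited table. Among peaks that do overlap their gene, 3 of the 5 peaks of Masp2 also overlap Tardbp, that of Serpind1 overlaps Pi4ka, and the 5′ UTR peak of F5 overlaps Selp. The single peak of Itgb2l, at -0.47 in the authors' deposited table, is 97450 bp wide and also overlaps Igsf5 and Pcp4. Reads of such neighbours may enter these values, which was not tested. Peaks that overlapped their own gene and no other RefSeq gene numbered 75, of which 66 were called, 18 negative and 48 positive. Their negative share was 27.3% (18 to 39), against 54% (53.1 to 55) of such peaks over the whole table. The 15 called peaks outside their gene or over another gene were negative in 10 and positive in 5, a negative share of 66.7% (41.7 to 84.8), against 48.4% (46.4 to 50.5) over the whole table.

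The 5′ and 3′ UTRs of these genes were both mostly positive. Of 28 called peaks in the 5′ UTR, 7 (25%, interval 12.7 to 43.4) were negative, against 30.1% (28.5 to 31.7) of such peaks over the whole table. In the 3′ UTR 16 of 47 (34%, 22.2 to 48.3) were negative, against 60.4% (59.3 to 61.5) over the whole table. Over all listed peaks of a feature, called or not, 23% of 5′ UTR peaks and 48.9% of 3′ UTR peaks were negative and called. The median called change was 0.65 at the 5′ UTR and 0.50 at the 3′ UTR of these genes, where the whole table had 0.62 and -0.76. The intervals overlapped in the 5′ UTR and did not in the 3′ UTR. They take each peak as separate, although some peaks of a gene overlap each other, so this is no test of a difference. With overlapping peaks of a gene merged, the negative shares were 22.2% of 27 in the 5′ UTR and 31.8% of 44 in the 3′ UTR. With peaks on the own gene alone, 3 of 22 called 5′ UTR peaks (13.6%, 4.75 to 33.3) were negative, against 27.7% (26 to 29.5) over the whole table. On the same terms 11 of 39 called 3′ UTR peaks (28.2%, 16.5 to 43.8) were negative, against 61.5% (60.3 to 62.7). Exon peaks were few: of 6 called, 5 (83.3%, 43.6 to 97) were negative, 3 of them in F5, against 61.8% over the whole table. Negative called peaks made up 38.6% of all listed exon peaks.

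**Figure D2:**
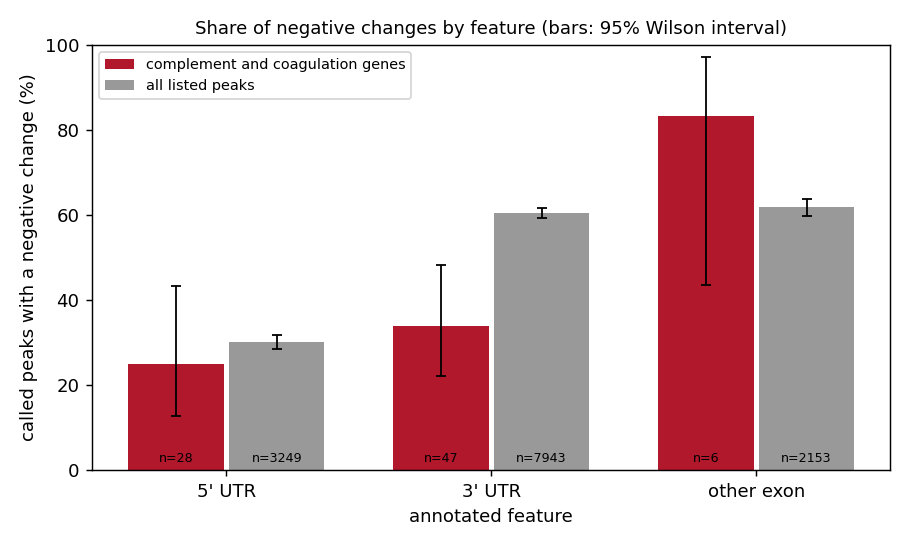
Percentage of called peaks with a negative change (y axis) by annotated feature, for complement and coagulation genes (red) and for all listed peaks (grey), with 95% Wilson intervals. The red bar of the 3′ UTR stands at 34% beside 60.4%, while in the 5′ UTR both bars lie between 25% and 30.1%.

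The 5′ UTR peaks varied widely in width. The deposited width runs over introns, so a wide peak carries the label of the 5′ UTR while covering much of the gene: the peak of C1s1 covers 92.7% and that of Fga 79% of the RefSeq span. Among the 12 called 5′ UTR peaks of up to 1000 bp, 11 were positive and only that annotated to C2, which lies in Zbtb12, was negative (8.33%, 1.49 to 35.4). Among called peaks of this kind over the whole table, 23.4% were negative. Among the 16 wider ones, 6 were negative (37.5%, 18.5 to 61.4), against 34.5% over the whole table. The intervals of narrow and wide peaks overlap, which is no test of a difference by width, and none was run.

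The bases around the transcript start are shown for 10 of the genes whose 5′ UTR peak lies at or runs over the start. An antibody against m6A also binds m6Am, a mark that another enzyme places next to the cap where transcription starts at A. Sequences are from RefSeq, assembly GRCm38.p6, on the strand of the gene, 15 bases before the start in lower case and the first 15 transcribed bases in capitals. The first 7 genes had a positive change, in peaks of 90 to 675 bp. The last 3 had a negative change, in peaks of 5754 to 8144 bp.
Fgg, chr3:83007709-83007738, plus strand: atctgggaatccctcAGAGCACGAGTGAGA
C8b, chr4:104766302-104766331, plus strand: tgtttgctctatgtcAACAGAACTGAGAGC
C1ra, chr6:124512606-124512635, plus strand: ctaaactgggaactcAGATTTTTTTTGCTG
Serpinc1, chr1:160978568-160978597, plus strand: gtgtggccaaagagcACACTTGCGTAAGAC
Kng2, chr16:23029087-23029116, minus strand: ggctggatctcaagcAGAGTCCTGTTTGTT
F2, chr2:91636443-91636472, minus strand: tgatttcttcacatcGGTTCAATATTAACC
F13b, chr1:139501692-139501721, plus strand: agtaatgagatcctgGGTGCTTTAGAGCTG
Fga, chr3:83026138-83026167, plus strand: tggagctgtgagtgcAGTCAGTCCTCCTTC
Serpind1, chr16:17331356-17331385, plus strand: acacaacagcccagcACCAAAGTTCACATT
Mbl1, chr14:41151441-41151470, plus strand: gaaggccagtccagcTTGGTTCCCGGTCAC

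A RefSeq start was matched within 50 bp of the called 5′ UTR peak of 17 genes, and for 14 of them (82.4%) the first transcribed base was A. This was so in 9 of the 11 (81.8%) with a positive and 5 of the 6 (83.3%) with a negative change. The 6 negative peaks were 3627 to 97450 bp wide and the 11 positive ones 61 to 4671 bp, so their widths differ. Negative peaks of F5, Serpind1 and Itgb2l and positive ones of C8g and Fgg also overlap another gene. Over all 1683 genes of the table with a called 5′ UTR peak at a matched start, 31.2% began with A, as did 34.4% of all 32851 RefSeq starts. Of the 37 complement and coagulation genes with a RefSeq start, with or without such a peak, 20 (54.1%) began with A. GGAC, the core of the usual m6A consensus, occurred in the first 50 transcribed bases, read on the transcribed strand, in 4 of the 17 genes and at 18.9% of all starts. The first base was counted after the values had been seen. The annotated start may differ from the one used in these livers, and whether any of these peaks holds m6Am was not tested.

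In 18 genes both UTRs had a called peak, and the leading ones were compared within the gene. The 5′ UTR peak was positive and the 3′ UTR peak negative in 6 genes, both were positive in 8, both negative in 2, and the 5′ UTR peak was negative and the 3′ UTR peak positive in 2. The first pattern made up 33.3% of genes here and 35.3% over the whole table. Both were positive in 44.4% here and 39.1% over the whole table, so with all peaks counted the shares were close. The 5′ UTR value was the higher one in 13 of 18 genes (72.2%), and in 73.5% of the 1475 such genes of the whole table. The median difference, 5′ UTR minus 3′ UTR, was 0.19 on the log2 scale, against 0.45 over the whole table. With peaks on the own gene alone it was 0.09 over 14 genes, against 0.45 over 1111 genes. On these terms the first pattern made up 21.4% of genes here and 34.9% over the whole table. Both were positive in 64.3% here and 40.6% over the whole table, so the shares stood farther apart.

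C1ra, which encodes a protease of the first complement component, had the widest gap, at 0.88 for the 5′ UTR peak and -1.16 for that of the 3′ UTR (authors' deposited table). Fgg, the fibrinogen gamma chain gene, had a 5′ UTR value of 0.97 and a 3′ UTR value of -0.78 (authors' deposited table). The clotting proteases F10 and F7, which lie next to each other on chromosome 8, had 5′ UTR values of 0.55 and 0.60 and 3′ UTR values of -0.88 and -0.65 (authors' deposited table). The 5′ UTR peak of F7 covers 45.3% of the gene, and the 3′ UTR peak of Fgg ends 525 bp before the RefSeq end. In Masp2 (0.56 and -1.14, authors' deposited table) the negative 3′ UTR peak also overlaps Tardbp, and in Serpinc1 (0.69 and -1.24, authors' deposited table) it lies in Zbtb37. F5 and C1s1 had the opposite order, with 5′ UTR values of -1.13 and -0.94 and 3′ UTR values of 0.59 and 0.54 (authors' deposited table). Their 5′ UTR peaks are 3627 and 11170 bp wide, and that of C1s1 contains most of the exon peak of the same gene. The 5′ UTR peak of F5 covers 0.56% of the RefSeq span of F5 and also overlaps Selp. With peaks on the own gene alone, 1 gene of 14 had the opposite order.

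**Figure D3:**
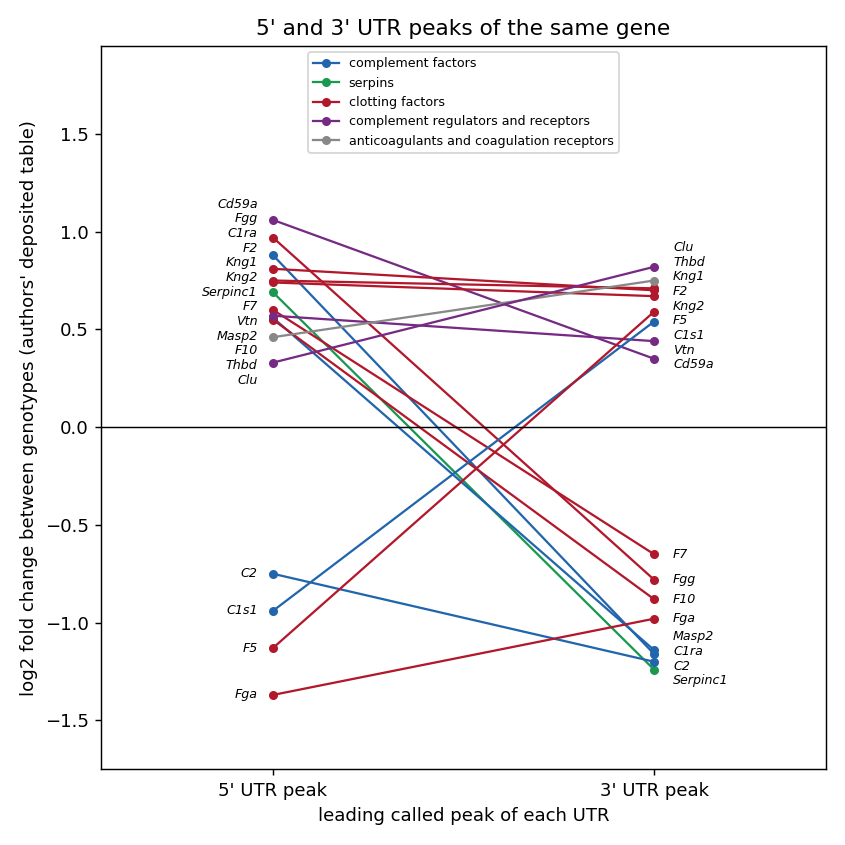
Log2 fold change between the genotypes (y axis, authors' deposited table) of the leading called 5′ UTR peak (left) and 3′ UTR peak (right) of 17 of the 18 genes that have both, joined by lines and coloured by role. 6 lines run from above 0 on the left to below 0 on the right, 2 run the other way, and 7 stay above 0.

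Among the 3′ UTR peaks, narrow ones at the very end of the gene were mostly positive. A peak was counted as narrow and terminal when it was up to 400 bp wide and its edge lay within 50 bp of the RefSeq end. Both limits were chosen after the values had been seen. Of 44 called 3′ UTR peaks that could be placed, 12 (27.3%) were of this kind, against 17.4% over the whole table. They were positive in 10 and negative in 2, the negative ones being those of C2 (-1.20) and C4bp (-0.91) in the authors' deposited table. Among called narrow terminal peaks over the whole table, 21.2% were negative. The other 32 called 3′ UTR peaks were negative in 14 (43.8%, 28.2 to 60.7), against 68.7% (67.5 to 69.8) over the whole table. Narrow terminal peaks of these genes thus had the same majority sign as in the table. For the remaining 3′ UTR peaks the 2 intervals did not overlap. That is no test of a difference, since the intervals take each peak as separate and the limits followed the values.

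**Figure D4:**
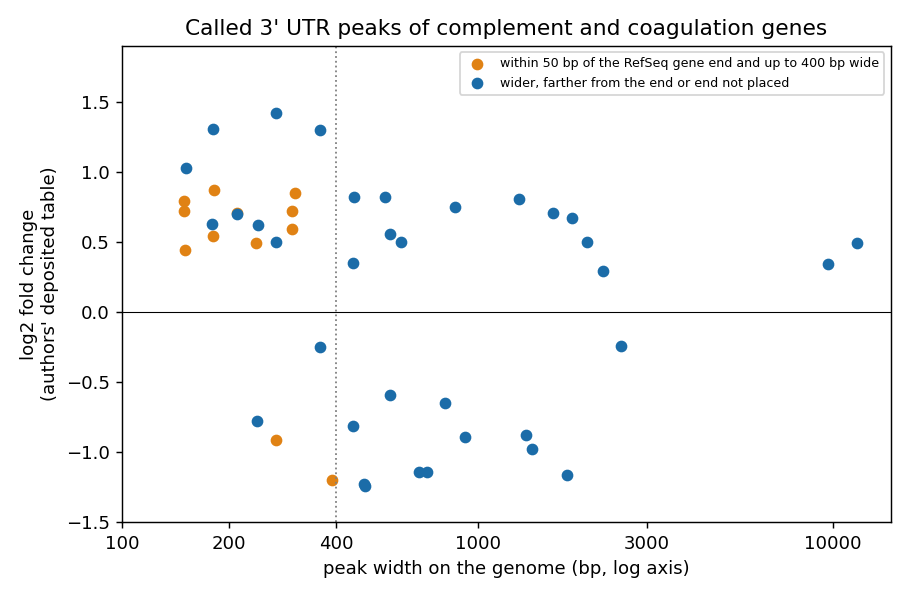
Log2 fold change between the genotypes (y axis, authors' deposited table) against peak width on the genome (x axis, bp, log scale) for the 47 called 3′ UTR peaks. Orange points are narrow peaks at the RefSeq gene end, of which 10 of 12 lie above 0, and the dotted line marks 400 bp.

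Clotting factors were even by gene. The called leading peak was negative in 6 and positive in 6 of the 13, and 1 was not called. Over all listed genes 81.1% had a called leading peak, and 58.6% of these were negative. Clotting factors had 26 of 27 peaks called (96.3%, against 76.2% of all listed peaks). These were negative in 11 and positive in 15, with medians of 0.74 over 9 5′ UTR peaks and 0.49 over 14 3′ UTR peaks. Fga, the fibrinogen alpha chain gene, was negative at both ends, with -1.37 at the 5′ UTR and -0.98 at the 3′ UTR (authors' deposited table), both at the lowest log10 FDR score of the table, -434, which 13 peaks of the set share. Its neighbour Fgg was of mixed sign, as given above. The beta chain gene Fgb carries no pathway number in the table and is no part of the set. The authors' deposited table gives it 0.55 at the 5′ UTR and -0.29 at the 3′ UTR. The 3 chains that assemble into fibrinogen thus had 3′ UTR values that were all negative and called, while their 5′ UTR values were of both signs. Negative called peaks made up 48.9% of all listed 3′ UTR peaks, and 3 genes are too few to set against that share.

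F5, a cofactor of the prothrombin-cleaving complex, held the most negative peak of the set. The authors' deposited table gives -2.04, a ratio of 0.243, for a peak of 330 bp in exon 13 of 25. Further peaks of 300 and 330 bp in the same exon stood at -1.13 and -1.21 there, and the 3′ UTR peak at 0.59 (authors' deposited table). That exon is the long one which in the human gene codes for most of the B domain, a stretch removed when the factor is activated. The 3 exon peaks lie between 164191930 and 164194386 on chromosome 1 of mm10 and do not overlap each other. F8, the related cofactor that is made mainly by endothelial cells, had its single peak in the 3′ UTR at 1.42 (log10 FDR -5.35, authors' deposited table). The 2 cofactor genes therefore differ in which part of the transcript holds a listed peak, and no feature is shared but the 3′ UTR.

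F2, which encodes prothrombin, was positive in both UTR labels, with 0.81 at the 5′ UTR and 0.70 at the 3′ UTR (authors' deposited table). The peak labelled 3′ UTR lies 12923 bp before the RefSeq end. Kng1 and Kng2, which encode kininogens, the source of bradykinin, were positive at 0.75 and 0.74 in the 5′ UTR (authors' deposited table). In the 3′ UTR, Kng1 held peaks of -0.24, 0.71 and 0.63 and Kng2 peaks of 0.67 and 0.49 (authors' deposited table). The Kng2 peak at 0.49 is 11710 bp wide and covers 27.1% of the RefSeq span. The 2 kininogen genes lie close together and resemble each other in sequence, so reads may be shared between them. F12, the factor that starts the contact pathway, had 0.49 in the 3′ UTR, and F13b, the carrier subunit of the fibrin-crosslinking enzyme, had 1.01 in the 5′ UTR, both called in the authors' deposited table. F3, the gene of tissue factor, which triggers clotting outside the vessel, was called at -0.81 in the 3′ UTR (log10 FDR -2.37, authors' deposited table). F13a1, the catalytic subunit of the crosslinking enzyme, had the highest value of the set, 2.50, but was not called (log10 FDR -0.65, authors' deposited table).

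Of the anticoagulant genes, Proc and Pros1 had opposite signs. They encode protein C, a protease that inactivates clotting cofactors, and its cofactor protein S. In the authors' deposited table the 3′ UTR peak of Proc stood at -0.59 and that of Pros1 at 0.82. Thbd, the endothelial receptor through which thrombin activates protein C, had 0.46 at the 5′ UTR and 0.75 at the 3′ UTR (authors' deposited table). The kinin receptor gene Bdkrb2 was not called, at -0.94 in the authors' deposited table. F2rl1, a protease-activated receptor gene outside the pathway number, was negative at -3.05 in the 3′ UTR (log10 FDR -7.63, authors' deposited table), lower than any peak of the set. Its 5′ UTR peak, at 2.78, was not called (log10 FDR -0.79, authors' deposited table).

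Of the 5 peaks of fibrinolysis genes, 2 (40%) were called, against 76.2% of all listed peaks. Both called peaks were positive (negative share 0%, interval 0 to 65.8), against a negative share of 53.3% over the whole table. These 2 peaks are too few for a comparison. Plg, the gene of plasminogen, the precursor of the fibrin-cleaving protease, was called at a log2 change of 1 in the 5′ UTR, and Cpb2, a carboxypeptidase that slows fibrinolysis, at 0.72 in the 3′ UTR (authors' deposited table). Plat, the tissue plasminogen activator gene, had 1.06 and 0.97 and Plaur, the urokinase receptor gene, 1.37, and none of these 3 peaks was called (authors' deposited table).

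**Figure D5:**
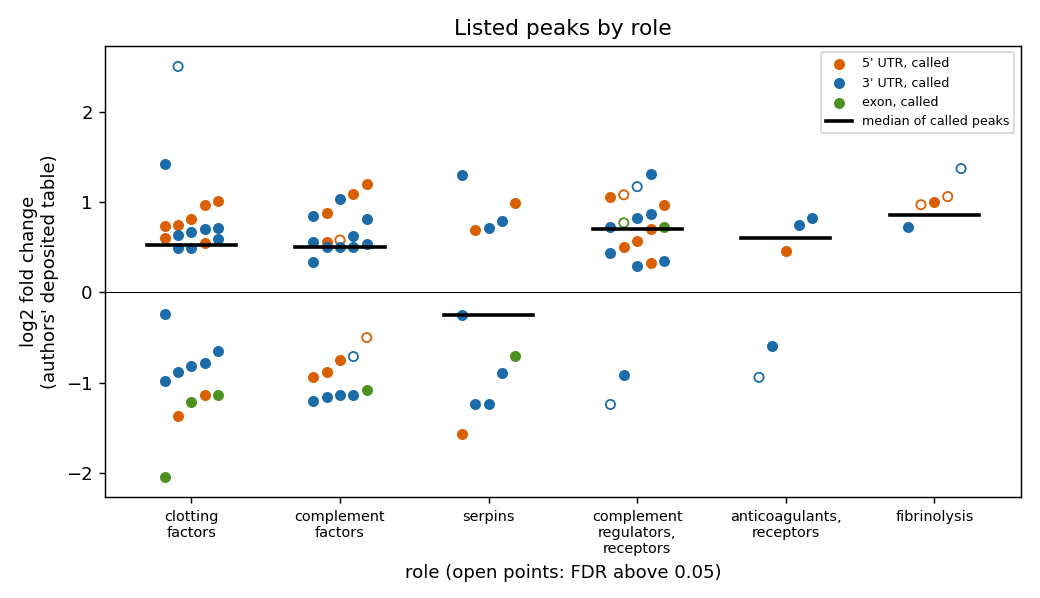
Log2 fold change between the genotypes (y axis, authors' deposited table) of each listed peak by role, coloured by feature, with called peaks filled and the median of called peaks as a bar. The bar lies at 0.52 for clotting factors, 0.50 for complement factors, -0.25 for serpins and 0.70 for complement regulators and receptors.

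Complement factors had 22 of 25 peaks called (88%, against 76.2% of all listed peaks), 8 negative and 14 positive. All 12 genes had a called leading peak, 5 negative and 7 positive. Over all listed genes 81.1% had a called leading peak, and 58.6% of these were negative. Besides C1ra, the negative genes were C1s1, the partner protease, with -1.08 in an exon in the authors' deposited table, C2 with -1.20 in the 3′ UTR (authors' deposited table), Masp2, the lectin-pathway protease, with the values given above, and Mbl1, a mannose-binding lectin, with -0.88 over a peak of 8144 bp labelled 5′ UTR (authors' deposited table). Masp1, another lectin-pathway protease, was positive at 0.34 and 0.50 in called 3′ UTR peaks in the authors' deposited table. The first of these lies 13366 bp before the RefSeq end, and the second lies 2098 bp outside the RefSeq span. The only 3′ UTR peak of Masp2 that does not overlap Tardbp was positive as well, at 0.81, and one that does stood at 1.03 (authors' deposited table). The Masp2 peak at 0.81 lies 9900 bp before the RefSeq end. Masp1 also had a 3′ UTR peak of -0.71 and a 5′ UTR peak of 0.58, neither of them called (authors' deposited table).

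C3, on which all complement pathways converge, stood at 0.85 in the 3′ UTR, at the lowest FDR score (authors' deposited table). Cfb, the protease of the alternative pathway, had 0.56 and 0.50 in 3′ UTR peaks that overlap each other by 528 bp (authors' deposited table). C8b and C8g, which encode chains of a subunit of the membrane attack complex, had 1.20 and 1.09 in the 5′ UTR (authors' deposited table), and the peak of C8g also overlaps Fbxw5. C4b stood at 0.62 in the 3′ UTR and C1qc, a chain of the antibody-binding subunit made mainly by macrophages, at 0.50 (authors' deposited table). C4b has a near-identical copy, C4a, annotated without the pathway number and positive at 1.04 in an exon (authors' deposited table), and how reads were divided between them is not given in the sources used here.

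Complement regulators and receptors had 14 positive and 1 negative among 15 called peaks, a negative share of 6.67% (1.19 to 29.8), against 53.3% over the whole table. The interval overlaps those of clotting factors and complement factors given below. Cfi, a protease that restrains the alternative pathway in plasma, was positive at 0.87 in the 3′ UTR (authors' deposited table). The terminal-pathway inhibitors Clu and Vtn were positive in every listed peak, Clu at 0.50 and 0.33 at the 5′ UTR and 0.29 and 0.82 at the 3′ UTR (authors' deposited table). Vtn had 0.57 at the 5′ UTR and 0.44 at the 3′ UTR there (authors' deposited table). The Clu peak at 0.50 was annotated to a nonsense-mediated decay transcript. The Clu peak at 0.29 and the 5′ UTR peak of Vtn were annotated to retained-intron transcripts. That Clu peak ends 6776 bp before the RefSeq end of the gene. Cd59a, a membrane inhibitor of the attack complex, had 1.06 in the 5′ UTR, 0.72 in an exon and 0.35 in the 3′ UTR (authors' deposited table). The single negative called peak was in C4bp, an inhibitor of the classical pathway, at -0.91 in the 3′ UTR, and a further peak annotated to it, 849 bp past the RefSeq end, stood at 1.31 (authors' deposited table). C3ar1, the receptor of a C3 fragment, found mainly on myeloid cells, was called at 0.70 (authors' deposited table). Cd59b at -1.24, the C5a receptor gene C5ar1 at 1.17 and the membrane regulator gene Cd55 at 0.77 were not called (authors' deposited table). The leading peak was positive and called in all 6 endothelial marker genes that had one, and of the macrophage marker genes 1 was negative, 1 positive and 2 not called. The negative macrophage marker was Csf1r, whose listed peaks lie outside its RefSeq span. Hepatocyte marker genes had 4 negative and 2 positive leading peaks, with a median of -1.17, against 0.68 over the 50 genes and 33.6% of all listed genes positive and called. The part of these cells in the values of Thbd, F8, C1qc and C3ar1 was not tested.

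Serpins were the smallest of the compared roles, with 11 called peaks in 6 genes, 6 negative and 5 positive. All listed peaks of these genes were called, against 76.2% over the whole table. By leading peak, 2 genes were negative and 4 positive, where 58.6% of called leading peaks of all listed genes were negative. Serpind1, the gene of heparin cofactor II, which inhibits thrombin, had the most negative leading peak of the 50 genes, -1.57, a ratio of 0.337, over 5754 bp labelled 5′ UTR (authors' deposited table). Serpinf2, which encodes the main plasmin inhibitor, was negative at -0.89 in the 3′ UTR (authors' deposited table). Both were at the lowest FDR score. Serpinc1, the gene of antithrombin, was positive on its own span, at 0.99 and 0.69 in the 5′ UTR (authors' deposited table). Its 3 negative peaks, at -0.25, -1.24 and -1.23, all overlap Zbtb37, and the last 2 overlap by 476 bp (authors' deposited table).

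The alpha-1-antitrypsin genes, inhibitors of neutrophil elastase, were positive at the end of the transcript. The authors' deposited table gives 0.71 for Serpina1b and 0.79 for Serpina1c in narrow terminal 3′ UTR peaks, and 0.74 for Serpina1a, which carries no pathway number. An exon peak annotated to Serpina1b, at -0.70, lies 83522 bp outside its RefSeq span (authors' deposited table). These genes are near-identical copies, so the values of the single copies are uncertain.

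Between the 3 compared roles, the share of negative called peaks was 42.3% (25.5 to 61.1) in clotting factors, 36.4% (19.7 to 57) in complement factors and 54.5% (28 to 78.7) in serpins, against 53.3% over the whole table. The intervals of the 3 roles overlap, and no order between them is drawn at these numbers of peaks. With peaks on the own gene alone, the shares were 41.7% (24.5 to 61.2) of 24 peaks, 31.2% (14.2 to 55.6) of 16 and 16.7% (3.01 to 56.4) of 6 in the same order, since 5 of the 6 negative serpin peaks lie outside their gene or over another gene. Such peaks were negative in 54% over the whole table. The median leading change was 0.49 in clotting factors, 0.42 in complement factors and 0.70 in serpins, against -0.52 over all listed genes. The sign of these medians turned with the choice of peak, to -0.08 in clotting factors with called peaks alone, to -0.10 in complement factors with the peak of largest size and to -0.10 in serpins with the mean over peaks. In the 3′ UTR 6 of 14, 4 of 14 and 4 of 7 called peaks were negative in the order named, and in the 5′ UTR 2 of 9, 3 of 7 and 1 of 3. Over the whole table the negative shares of called peaks were 60.4% in the 3′ UTR and 30.1% in the 5′ UTR.

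The lists of these roles also hold genes without the pathway number. Of 18 clotting factor genes listed, 14 had a peak, as had 15 of 31 complement factor genes, 14 of 22 complement regulators and receptors, 8 of 15 serpins and related inhibitors, 5 of 11 anticoagulants and receptors and 4 of 5 fibrinolysis genes. With all of these, leading called peaks were negative in 6 and positive in 7 clotting factor genes, 5 and 9 complement factor genes, 2 and 8 regulators and receptors, and 2 and 6 serpins and related inhibitors. Over all listed genes 58.6% of called leading peaks were negative. Fgb, whose peaks share the lowest FDR score, counts as positive by its larger change. Pzp, a broad protease inhibitor related to alpha-2-macroglobulin, stood at 0.64 in the 3′ UTR (authors' deposited table). Genes of the lists with no peak in the table, among them F9, F11, Klkb1 and Vwf, were not analysed here.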

How the data were processed

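Per the labels' protocols, poly(A) RNA of mouse liver was fragmented, precipitated with an anti-m6A antibody and sequenced with input mRNA as stranded libraries. The submitters' processing notes name HISAT2 2.1.0 and the build mm10. The peak caller, its filters, its use of strand and the treatment of replicates could not be learned, being not given in the sources used here. Each peak has, per the file headers, a p-value rounded to 2 decimals, an FDR as log10 and a fold change as log2, all computed by the authors. The log2 value and the log10 FDR are handled as scores of the deposited table, the second because its lowest value, -434, stands apart from the next, -321. Deposited widths and distances from the transcript start are other measures, in bases of the genome with introns. The 189 rows that lack a gene name, whose last cells are shifted, were not used.

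Counts, shares, medians and 95% Wilson intervals were computed with Python 3.11.15, pandas 2.3.3, numpy 2.4.6 and scipy 1.17.1, and the steps were tested on simulated data. Gene spans and starts came from RefSeq (GRCm38.p6). The strand came from the table of starts or from the deposited distance of coding transcripts, and both gave the same strand in 5112 of 5160 genes. It was not placed for Cfb, C4b, Plat and Plg. The genes and the role lists were chosen with earlier results of these data known, and any gene of the set may be named. Every peak's value is given for genes with peaks in both UTRs or of both signs, and for the 10 most negative and 10 most positive called leading peaks. Some genes are counted in the totals but are not reported here by name. No test across libraries was possible without values per library. It is unknown if the authors' FDR allows for differences among replicate libraries. The intervals cover counting error over peaks only, with sequencing depth unknown. Alternatives are the FDR limit, a minimum change, centring, width, gene families, placement in RefSeq and the choice of leading peak.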

Additional observations from a re-analysis of the deposited data

How the results depend on the processing

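No paired analysis was possible because the deposited table holds no values per library, and leaving out replicates was not possible for the same reason. The counts of 28 negative and 53 positive called peaks became 13 and 9 with a change of at least 1 in size, and 18 and 35 with peaks of at most 1000 bp. Negative peaks numbered 18 over the own gene alone, which, like called peaks alone, 5′ UTR peaks alone and merged overlapping peaks, was tried only after seeing the data. The negative share of 3′ UTR peaks was 60% of 10 for changes of at least 1 (85.1% of such peaks over the whole table), and with peaks of at most 1000 bp that in the 5′ UTR was 8.33% of 12. Over the own gene alone the negative share of serpin peaks was 16.7%, in place of 54.5%, and 6 genes had both signs, in place of 11. The median leading change of clotting factors (0.49) turned to -0.65 without near-identical families and to -0.08 with called peaks alone or over the own gene alone. That of complement factors (0.42) turned to -0.10 with the peak of largest size. That of serpins (0.70) turned to -0.10 with the mean over peaks, -0.09 with the peak of largest size, -0.10 without near-identical families and -0.44 with 5′ UTR peaks alone. After subtracting 0.34, the median over every listed peak, the 3 medians were 0.15, 0.08 and 0.36. The sign of each role's median thus rests on few genes, and the cause was not tested. Neither count nor either UTR share changed with an FDR limit of 0.01, and with overlapping peaks of a gene merged the counts were 25 and 52.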
